A study of Mus musculus with 6 samples.

Results

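Fibroblasts carried along with CD45+ cells from pancreatic tumors were described here across 3 treatments. A barcode counted as a fibroblast when it carried at least 3 UMIs of Col1a2, a chain of type I collagen, at least 2 UMIs of Dcn, which encodes the collagen-binding proteoglycan decorin, and at least 1 UMI of Pdgfra and Pdgfrb together, the receptors for platelet-derived growth factor. Barcodes with more than 3 UMIs of the keratins Krt8 and Krt18, more than 3 UMIs of the complement chains C1qa, C1qb and C1qc, or any UMI of Ptprc, which encodes CD45, or of the endothelial gene Pecam1 were left out. In all, 558 of 60351 barcodes met this rule (0.925%). The rule used measured values, so the level of these genes in the cells chosen is a description and not a finding. The isolation selected CD45+ cells and the rule required Ptprc at 0, so these are cells that the isolation was not meant to keep.

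Fibroblasts build and remodel connective tissue. They secrete fibrillar collagens and matrix glycoproteins, cross-link them with lysyl oxidases and cut them with matrix metalloproteinases. In pancreatic cancer they form much of the stroma, and cancer-associated fibroblasts (CAFs) are often divided into contractile myofibroblastic cells, inflammatory cells that secrete cytokines and complement, and antigen-presenting cells with class II molecules. Interleukin-10 signals through the chains IL10RA and IL10RB, and interleukin-2 through IL2RA, IL2RB and the common gamma chain IL2RG, all best known from leukocytes.

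The tumors grew under the skin of C57BL/6 mice from 6694c2vTRP1 pancreatic cancer cells. Mice were given PBS, mono-IL10 at 26 μg per mouse, or IL10/2-Trikine at 30.6 μg per mouse into the peritoneum, in 2 doses with the first on day 8, and tumors were taken on day 14. IL10/2-Trikine joins IL-10 to a part that binds the beta chain of the IL-2 receptor, and the study compared it with IL-10 alone. Each mouse was marked by its own hashtag antibody, and the mice of a treatment were pooled into 1 library, which makes 3 libraries with 5 hashtags each and 15 mice. The mouse is therefore the unit of replication, but treatment and library cannot be told apart, and p-values measure only the spread between mice within libraries. Each treated group was set against the same 5 PBS mice, so these contrasts share their controls. As a model, the tumors came from 1 implanted cell line, grown at a site under the skin and not in the pancreas.

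The 3 libraries held 364814102 to 515236552 gene UMIs over 34187 genes. After the filters of at least 1000 genes and at most 10% mitochondrial UMIs, 24060 to 46104 barcodes remained in a library, and a single hashtag held at least 66.7% of the antibody UMIs in 52.1% to 71.0% of them. Pairs of libraries shared 250 to 441 of these barcode sequences. The median fibroblast had 13498 UMIs in the PBS library, 19302 in the mono-IL10 library and 6018 in the IL10/2-Trikine library, so each fibroblast of the IL10/2-Trikine mice was read less deeply. The counting errors given below cover sampling of UMIs and barcodes only.

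Collagen, decorin and PDGF receptor UMIs at the required levels were found in 2315 barcodes, of which 976 had a single hashtag. The limits on other lineages then removed 418 of these 976 barcodes: 297 had Ptprc, 238 were over the C1q limit, 144 were over the keratin limit and 112 had Pecam1, with overlaps. The limits removed 43.9% in the PBS library, 31.6% in the mono-IL10 library and 49.6% in the IL10/2-Trikine library. Among the 558 fibroblasts, 387 had both PDGF receptors, 71 had Pdgfra alone and 100 had Pdgfrb alone. Exactly 2 Dcn UMIs were present in 38 fibroblasts, 26 of them from IL10/2-Trikine mice, and 25 barcodes with 1 Dcn UMI lay just outside the rule, 20 of them from IL10/2-Trikine mice. Exactly 3 Col1a2 UMIs were present in 2 fibroblasts, and no barcode with 2 missed the rule on that account alone. At the limits on other lineages, 3 fibroblasts had 3 keratin UMIs and 2 had 3 C1q UMIs, while 0 and 2 barcodes, respectively, with 4 lay just outside. Keratin UMIs were at 0 in 505 fibroblasts and C1q UMIs in 473.

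Fibroblasts were a small and variable share of each tumor's barcodes. The numbers per PBS mouse were 11, 80, 18, 21 and 21, the numbers per mono-IL10 mouse 16, 30, 17, 20 and 110, and the numbers per IL10/2-Trikine mouse 70, 88, 11, 3 and 42. As a share of the barcodes of a mouse this was 0.367%, 1.23%, 0.853%, 0.482% and 0.640% with PBS, 0.342%, 0.929%, 0.907%, 0.774% and 2.33% with mono-IL10, and 0.812%, 1.08%, 0.880%, 0.188% and 0.956% with IL10/2-Trikine. The lowest share, in IL10/2-Trikine mouse 4, had a 95% exact binomial interval of 0.0389% to 0.550%, and the highest, in mono-IL10 mouse 5, one of 1.92% to 2.80%. The 3 groups overlapped.

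**Figure D1:**
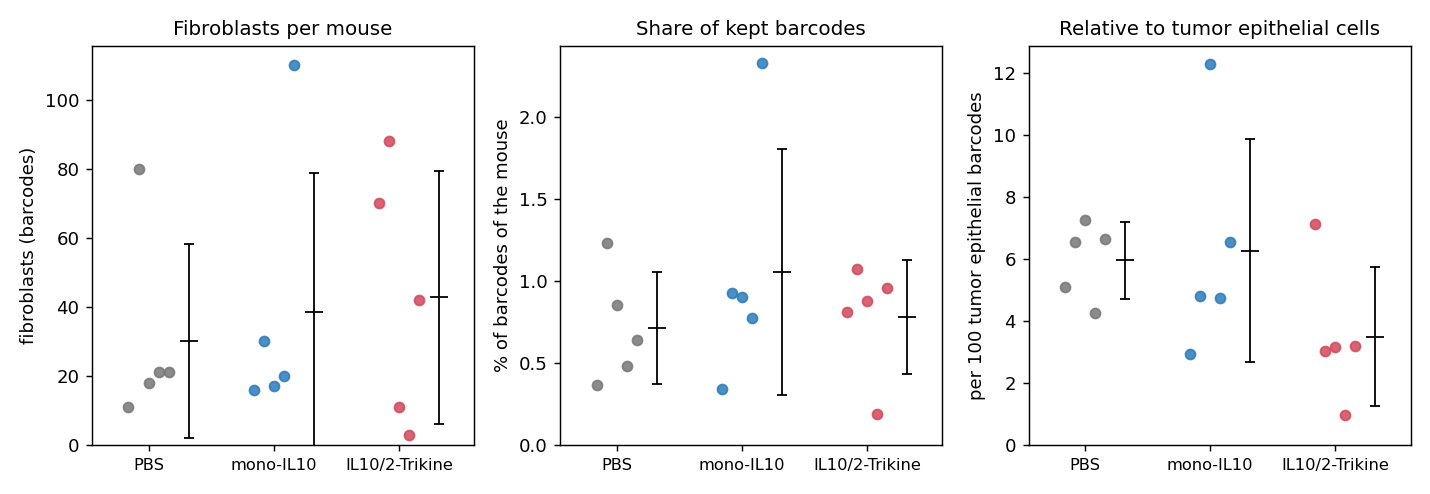
Fibroblasts of each mouse by treatment, as their number, as a share of all barcodes of the mouse and per 100 tumor epithelial barcodes. Points are mice and bars are means with SD. The groups overlap in the share of all barcodes, and 4 of the 5 IL10/2-Trikine mice lie below every PBS mouse per 100 tumor epithelial barcodes.

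The mean share was 0.715% ± 0.343 with PBS, 1.06% ± 0.750 with mono-IL10 and 0.783% ± 0.346 with IL10/2-Trikine (SD, n = 5 mice each). IL10/2-Trikine differed from PBS by 0.0673 percentage points (exact permutation test over 252 splits, two-sided, p = 0.762) and mono-IL10 differed from PBS by 0.341 points (exact permutation p = 0.460). IL10/2-Trikine was 0.274 points below mono-IL10 (exact permutation p = 0.611), and all 3 adjusted values were 0.762, where the smallest p these groups allow is 0.00794. Without mono-IL10 mouse 5 the difference between mono-IL10 and PBS was 0.0226 points, and IL10/2-Trikine was then 0.0447 points above mono-IL10. It was also above mono-IL10, by 0.0462 points, with barcodes thinned to 3000 UMIs before the rule. The sign of the difference between IL10/2-Trikine and PBS also turned on a single animal, at -0.0198 points without PBS mouse 1 and -0.00622 points without IL10/2-Trikine mouse 2.

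The denominator mattered. Barcodes without Ptprc were mostly tumor epithelial cells, except in IL10/2-Trikine mouse 1, where 981 of 2222 were. Among barcodes without Ptprc, fibroblasts made up 3.71% ± 0.905 with PBS, 4.25% ± 1.90 with mono-IL10 and 2.02% ± 0.901 with IL10/2-Trikine (SD, n = 5). On this measure IL10/2-Trikine was 1.69 points below PBS (exact permutation p = 0.0238, adjusted 0.0595) and 2.23 points below mono-IL10 (exact permutation p = 0.0397, adjusted 0.0595), so neither difference passed the correction over 3 contrasts. Per 100 tumor epithelial barcodes there were 5.97 ± 1.25, 6.28 ± 3.61 and 3.49 ± 2.24 fibroblasts (SD, n = 5), and IL10/2-Trikine was lower than PBS by 2.47 (exact permutation p = 0.0635, adjusted 0.190). The median kept barcode had 9474 UMIs in the PBS library, 11643.5 in the mono-IL10 library and 6399 in the IL10/2-Trikine library. A barcode read less deeply can miss Ptprc or Dcn, and these denominators were not rerun at equal depth. How far these shares follow the depth or the bead isolation and not the tumor was not tested.

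The cells chosen by the rule carried the wider program of fibroblasts. Levels below are means over the 14 mice with at least 10 fibroblasts, in counts scaled to 1e6 UMIs (CPM) of the fibroblasts of a mouse, set beside 3 other cell classes chosen by their own marker UMIs, namely 11758 tumor epithelial cells, 15973 macrophages and 322 endothelial cells. No test was made, since the classes were picked on measured genes. Barcodes with any Dcn UMI were left out of all 3 other classes. Those with more than a single Col1a2 UMI were left out of the tumor epithelial cells and macrophages. Low levels of matrix genes in those classes may therefore partly follow from this choice. Col1a1, the partner chain of Col1a2 in type I collagen, stood at 24569 ± 1637 CPM in fibroblasts (SD, n = 14) against 9.25 CPM in tumor epithelial cells, 5.84 in macrophages and 69.5 in endothelial cells. Col3a1, which forms type III collagen, stood at 17404 ± 1856 CPM against at most 119 CPM in the other classes. The groups of mice gave similar levels, with Col1a1 between 21154 and 26724 CPM in every mouse.

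Matrix glycoproteins followed the same pattern. Postn, which encodes periostin, stood at 5243 ± 935 CPM against at most 78.1 CPM elsewhere, and Tnc, which encodes the adhesion-modulating glycoprotein tenascin-C, at 6263 ± 1403 CPM against at most 71.0. Lum, which encodes the collagen-binding lumican, was at 902 ± 91.4 CPM and at most 0.240 CPM in the other classes. Some matrix genes were shared. Fn1, fibronectin, stood at 2839 ± 309 CPM in fibroblasts and 1700 CPM in macrophages, Sparc, a collagen-binding glycoprotein, at 13739 ± 1407 CPM in fibroblasts and 5203 CPM in endothelial cells, and Thbs1, the TGF-beta-activating thrombospondin-1, was higher in macrophages, at 5078 CPM, than in fibroblasts, at 2101 ± 741 CPM.

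The enzymes that finish and cut collagen were also present. Lox, a lysyl oxidase that cross-links collagen, stood at 998 ± 323 CPM against at most 1.19 CPM in the other classes, and Loxl1, a second lysyl oxidase, at 514 ± 66.6 against at most 0.784. Serpinh1, the chaperone of collagen folding, was at 2956 ± 342 CPM and at 972 CPM in endothelial cells. Among the proteases, Mmp14, a membrane-bound metalloproteinase, was steady over mice at 1820 ± 87.8 CPM, while Mmp3, which encodes stromelysin-1, ranged from 13.3 to 520 CPM and Mmp13, a collagenase, from 4.83 to 270 CPM.

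Contractile genes were present but uneven. Acta2, smooth muscle actin, ranged from 465 to 3049 CPM over mice and had a UMI in 64.7% of the fibroblasts when each was thinned to 3000 UMIs, and Tagln, an actin-binding protein of contractile cells, ranged from 630 to 5487 CPM. Lrrc15, a surface protein of TGF-beta-exposed myofibroblasts, stood at 852 ± 142 CPM against at most 1.05 CPM elsewhere, and Thy1, which encodes the surface protein CD90, at 553 ± 86.7 against at most 64.4. Fap, fibroblast activation protein, stood at 106 ± 19.8 CPM against at most 11.3. Pdpn, podoplanin, was higher in macrophages, at 295 CPM, than in fibroblasts, at 187 ± 49.6 CPM. The mesenchymal transcription factor Prrx1 stood at 490 ± 70.6 CPM against at most 26.8.

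Among secreted signals, Tgfb2, a TGF-beta ligand, stood at 293 ± 91.4 CPM against at most 25.2 CPM in the other classes, and Igf1, insulin-like growth factor 1, at 223 ± 131 CPM against 65.1 CPM in macrophages. The monocyte attractants Ccl2 and Ccl7 stood at 613 ± 294 and 696 ± 278 CPM in fibroblasts, and at 371 and 728 CPM in macrophages. Cxcl12, which retains leukocytes through CXCR4, was at 191 ± 128 CPM in fibroblasts and 278 CPM in endothelial cells. Il6, the gp130 cytokine of inflammatory CAFs, ranged from 24.9 to 286 CPM and had a UMI in 7.72% of thinned fibroblasts. Hbegf, a growth factor for the EGF receptor, was lower in fibroblasts, at 201 ± 97.1 CPM, than in tumor epithelial cells, at 1164 CPM.

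Of the receptor chains for the injected cytokines, Il10ra, Il2ra and Il2rb were near 0 in fibroblasts, and Il10rb and Il2rg were low. Il10ra stood at 0.989 CPM, with 0 UMIs in 9 of 14 mice, against 119 CPM in macrophages, and had a UMI in 0.735% of thinned fibroblasts against 28.9% of thinned macrophages. The chain Il10rb stood at 13.8 ± 6.22 CPM. Il2ra stood at 0.721 CPM and Il2rb at 0.402 CPM, with 0 UMIs in 10 and 12 of 14 mice, and Il2rg at 9.52 ± 5.73 CPM against 105 CPM in macrophages. Ifngr1, the interferon-gamma receptor chain, was at 65.4 ± 12.8 CPM. At this depth free RNA in the droplets can leave such levels in cells that do not express a gene, and Il10ra stood at 0.672 CPM and Il2rb at 0.487 CPM in tumor epithelial cells.

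Class I genes were lower than in the other classes, with B2m at 1118 ± 295 CPM against 3232 to 4095 CPM and H2-K1 at 294 ± 116 CPM against 1132 to 1819 CPM. Class II genes, which define antigen-presenting CAFs, were low, with Cd74, the invariant chain, at 14.8 ± 13.6 CPM against 4880 CPM in macrophages and H2-Aa at 5.38 ± 5.54 against 2014. S100a4, sometimes used to mark fibroblasts, stood at 26.3 ± 20.4 CPM in these cells and at 515 CPM in tumor epithelial cells.

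**Figure D2:**
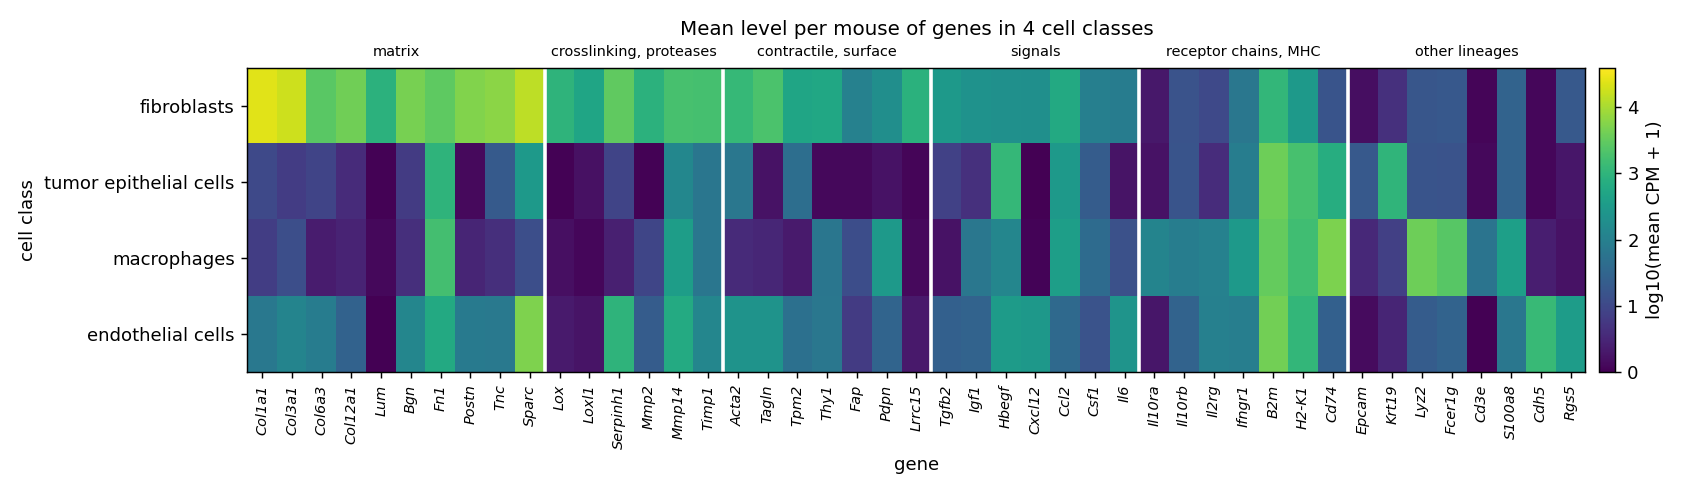
Mean level over mice of genes of the fibroblast program, of receptor chains and MHC, and of other lineages in fibroblasts, tumor epithelial cells, macrophages and endothelial cells. Color gives log10 of the mean CPM plus 1. Collagen, matrix and lysyl oxidase genes are high in the fibroblast row, where Il10ra (0.989 CPM) and the markers of other lineages at the right are low.

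Markers of other lineages were checked over their whole lists without the genes that the rule limited, summed per mouse on the TMM-scaled CPM used for the contrasts. For macrophages and monocytes 16 of 17 markers had a UMI, and their sum was 218 to 372 with PBS, 140 to 317 with mono-IL10 and 211 to 393 with IL10/2-Trikine, with Lyz2 at 15.8 CPM in fibroblasts against 3842 CPM in macrophages. For tumor epithelial cells 14 of 18 had a UMI, with sums of 1385 to 3034, 2626 to 5611 and 1496 to 5871. Nearly all of this was the secreted osteopontin gene Spp1, at 3171 ± 1359 CPM, and without it the sums were 3.62 to 18.3, 2.94 to 12.2 and 0 to 33.8, while Epcam was at 0 in 10 of 14 mice and Krt19 was at 3.39 CPM against 1031. For lymphocytes 10 of 14 had a UMI and the sum stayed at or below 34.2, with Cd3e at 0 in 13 mice. For neutrophils 7 of 8 had a UMI, and the sums were 0 to 227, 0 to 223 and 0 to 293. For endothelial cells 12 of 14 had a UMI and the sums were 47.5 to 117, 44.0 to 82.2 and 95.8 to 121, with Cdh5 at 0 in 13 mice. For pericytes and smooth muscle all 12 had a UMI, at 97.8 to 272, 84.9 to 396 and 205 to 261. For mesothelial and Schwann cells 4 of 10 had a UMI, with Upk3b and Sox10 at 0 in all 14 mice, and the sum stayed at or below 15.1. For skeletal muscle and adipocytes 9 of 12 had a UMI, with Adipoq at 0, and the sums were 25.4 to 116, 39.1 to 104 and 87.1 to 151.

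The fibroblasts were divided among themselves by k-means into 4 clusters on 2000 variable genes without the rule genes, and the clusters are described by their leading genes, with no test. Cluster 1 held 276 cells (49.5%) and was led by the early-response and inflammatory genes Tnfaip3, Nr4a3, Egr3 and Ptgs2, the last encoding the prostaglandin enzyme cyclooxygenase-2. Listed genes that respond to tissue dissociation and stress summed to 24153 CPM in it against 14214 CPM in the other fibroblasts. Cluster 2 held 188 cells (33.7%) and was led by Prss35, the contractile genes Actg2, Myl9, Tagln and Acta2, and the matrix gene Tnn. Cluster 3 held 56 cells (10.0%) and was led by the dividing-cell genes Top2a, Ube2c and Mki67, the last with a UMI in 91.1% of its cells and 2.19% of the others. Cluster 4 held 38 cells (6.81%) and was led by Rgs5, Plac9, Ly6c1, Saa3 and Clec3b.

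Cluster 4 differed from the rest of the fibroblasts in several programs. The summed level of the inflammatory CAF list was 16814 CPM in it against 4815 CPM in the other fibroblasts, that of progenitor-type fibroblast genes 6287 against 1822, and that of the fibrillar collagens without Col1a2 32610 against 48787. Its pericyte and smooth muscle markers summed to 1964 CPM against 185. Its median cell had 6174 UMIs, against 9472 to 19207 in the other clusters.

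With 6 clusters, cluster 4 came apart into groups of 30 and 8 cells. The group of 30 cells was led by Saa3, Clec3b, Ly6c1, Tnxb, Efemp1 and the complement gene C3, which had a UMI in 80.0% of them and 25.6% of the other fibroblasts. The group of 8 cells was led by Rgs5, Abcc9 and Mcam, which mark pericytes. The 30 cells came from PBS mice in 9 cases, from mono-IL10 mice in 2 and from IL10/2-Trikine mice in 19, and IL10/2-Trikine mouse 1 alone gave 12. The 8 cells with pericyte genes included 4 of mono-IL10 mouse 5. A further group of 13 cells, of which 10 had been in cluster 1 and 3 in cluster 2, was led by S100a9, S100a8 and Il1b, which mark neutrophils. S100a9 had a UMI in 69.2% of these cells and 2.57% of the other fibroblasts. They came from PBS mice in 4 cases, from mono-IL10 mice in 3 and from IL10/2-Trikine mice in 6, were kept in all sums, and their part in the contrasts was not tested.

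By mouse, the 38 cells of cluster 4 were 1, 4, 2, 2 and 1 with PBS, 1, 1, 0, 1 and 5 with mono-IL10, and 12, 2, 2, 0 and 4 with IL10/2-Trikine. The cells of cluster 3 were 0, 6, 3, 1 and 2 with PBS, 2, 2, 3, 2 and 18 with mono-IL10, and 6, 9, 0, 0 and 2 with IL10/2-Trikine. Every mouse had cells of cluster 1 and of cluster 2, and no group lacked a cluster. Cluster sizes were not compared between treatments, because the genes that define them also differed in the contrasts below.

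**Figure D3:**
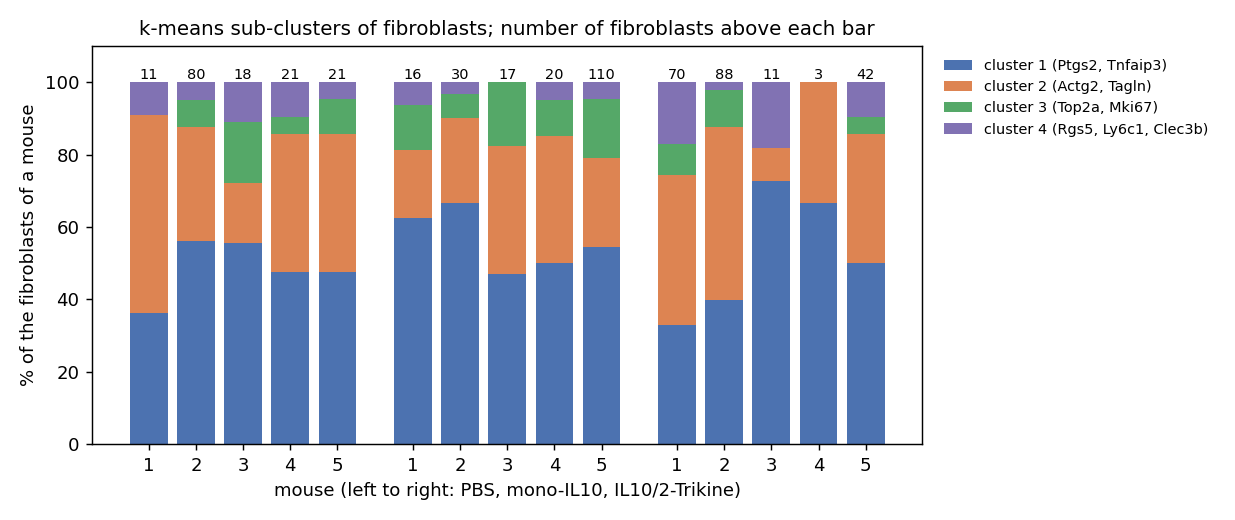
Share of each mouse's fibroblasts in the 4 k-means clusters, with the number of fibroblasts of the mouse above each bar. Clusters 1 and 2 are present in every mouse, and cluster 4 reaches 12 of 70 cells in IL10/2-Trikine mouse 1.

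The treatment contrasts asked whether fibroblasts of treated tumors differed from those of PBS tumors, and IL10/2-Trikine from IL-10 alone. UMIs were summed per mouse over its fibroblasts, and 5424 of 18351 genes with any UMI passed the filter on low counts and were tested with edgeR's quasi-likelihood test, with Benjamini-Hochberg adjustment over all of them. IL10/2-Trikine mouse 4, with 3 fibroblasts, was left out, which leaves 14 mice. Levels are TMM-scaled CPM in the order of mouse numbers, and differences are log2 fold changes with their SE. Outside the gene lists, the largest called changes were picked for naming among genes whose 2 compared groups did not overlap. For these genes the lack of overlap between the 2 groups follows from the choice and adds no support. In bulk sums of this kind a change of the mix of clusters and a change within cells cannot be told apart.

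Few genes were called between IL10/2-Trikine and PBS. The sums rested on as few as 11 fibroblasts in a mouse, so a low count does not show that few genes differed. With more cells, the same contrast called 2104 of 13445 genes within tumor epithelial cells and 2534 of 12092 within macrophages. In fibroblasts, at an adjusted p under 0.05, 5 genes of 5424 were called (0.0922%), all higher with IL10/2-Trikine, and 488 had an unadjusted p under 0.05 (9.0%). The 5 called genes were Tpbg, which encodes the surface glycoprotein 5T4, and the ribosomal protein genes Rps27, Rps28, Rpl37a and Rpl39. DESeq2 called 40 of the 5424 genes, 26 higher and 14 lower. With no filter on low counts edgeR called 28 of 18351 genes, 9 higher and 19 lower, and only 1 of them was among the 5 called here. Tpbg stood at 72.3, 105, 116, 79.8 and 102 with PBS, at 108, 130, 147, 109 and 113 with mono-IL10, and at 198, 223, 226 and 204 with IL10/2-Trikine. All 4 IL10/2-Trikine mice were above every other mouse. It rose 2.17-fold over PBS (log2 1.12 ± 0.15, edgeR adjusted p = 0.00398) and was also higher than with mono-IL10 (log2 0.80 ± 0.15, edgeR adjusted p = 0.0281). Within tumor epithelial cells, fitted over all 15 mice, Tpbg was higher by 0.67 on the log2 scale with IL10/2-Trikine than with PBS (edgeR adjusted p = 0.000785).

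The ribosomal protein genes moved by smaller amounts. Rps28 stood at 1395, 1421, 1315, 1454 and 1385 with PBS, at 1743, 1703, 1534, 1529 and 1549 with mono-IL10, and at 1953, 1934, 2529 and 1863 with IL10/2-Trikine, so that all treated mice lay above all PBS mice. The log2 fold change of IL10/2-Trikine over PBS was 0.56 ± 0.10 for Rps28, 0.57 ± 0.10 for Rps27, 0.50 ± 0.09 for Rpl37a and 0.49 ± 0.09 for Rpl39 (edgeR adjusted p = 0.0279, 0.0279, 0.0279 and 0.0443). As a group chosen after these values were seen, 51 of 81 ribosomal protein genes tested were above 0 for IL10/2-Trikine over PBS and 78 of 81 for mono-IL10 over PBS (52 and 75 with no scaling beyond the totals). As a share of the TMM-scaled total of the tested genes, and not of the UMIs of a mouse, they made up 12.6% to 14.1% with PBS. With mono-IL10 this was 14.4% to 15.6%, and with IL10/2-Trikine 13.5% to 16.9%. The same 4 genes were higher in tumor epithelial cells of the IL10/2-Trikine library, by 0.59 to 0.71 on the log2 scale, and in its macrophages, by 0.33 to 0.57. Such genes have near-identical processed copies in the genome, which leaves their counts uncertain. Leaving out a single mouse reduced the 5 calls to Tpbg alone for PBS mouse 1, 2, 3 or 5 and for IL10/2-Trikine mouse 1, 3 or 5, and to 0 for IL10/2-Trikine mouse 2.

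Between mono-IL10 and PBS no gene was called by edgeR (0%), 378 genes had an unadjusted p under 0.05 (6.97%), and DESeq2 called 4. Jund and Mmp10 are given here as values. Jund, an AP-1 subunit, stood at 925, 1115, 1272, 979 and 903 with PBS and at 1452, 1441, 1346, 1626 and 1451 with mono-IL10, which do not overlap (log2 0.49 ± 0.10, edgeR adjusted p = 0.202). For Mmp10, a stromelysin, the values were 36.2, 26.8, 10.9, 10.9 and 18.3 with PBS and 144, 77.8, 66.0, 26.4 and 83.6 with mono-IL10, where only mouse 4 fell among the PBS mice (log2 1.86 ± 0.39, edgeR adjusted p = 0.202).

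More genes were called between the treated groups. IL10/2-Trikine and mono-IL10 differed at 32 of 5424 genes (0.590%), with 18 higher (0.332%) and 14 lower (0.258%) with IL10/2-Trikine, and 702 genes had an unadjusted p under 0.05 (12.9%). The 18 higher genes include Pdgfra, whose UMIs were used to choose the cells, so its call is no test and nothing is read from it. The count of 32 leaned on single animals: it was 0 without IL10/2-Trikine mouse 1, 3 without IL10/2-Trikine mouse 5, 5 without mono-IL10 mouse 5, 10 without mono-IL10 mouse 3 and 12 without mono-IL10 mouse 2. It was also 0 when fibroblasts were chosen after thinning every barcode to 3000 UMIs, which left 1201 genes to test. It was 0 as well, with 4801 genes, when each hashtag's background was subtracted and the same hashtag then had to hold at least 90%. All 32 genes kept their direction in each of those fits that tested them. Of the alternatives that tested them, Vim passed in 18 of 22, Hbegf and Tnfrsf12a in 17 of 22 and Dusp1 in 16 of 22, while Hk2 passed in 7 of 21, Apoe in 7 of 20 and Clec3b in 10 of 19. These libraries also differ most in depth, with fibroblast UMIs summing to 333932 to 2277940 in the mice given mono-IL10 and 73065 to 554910 in those given IL10/2-Trikine that entered the fit.

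Genes lower with IL10/2-Trikine included Hbegf, Dusp10, Dusp5 and Tnfrsf12a. Hbegf stood at 225, 293, 308, 379 and 312 with mono-IL10 and at 115, 90.1, 45.2 and 121 with IL10/2-Trikine. The groups did not overlap, and the PBS mice, at 367, 130, 214, 218 and 194, lay above all IL10/2-Trikine mice. It fell 3.0-fold (log2 -1.58 ± 0.26, edgeR adjusted p = 0.00921). Against PBS the log2 difference was -1.08 ± 0.27 (edgeR adjusted p = 0.155).

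Dusp10 and Dusp5 encode phosphatases that switch off MAP kinases, of the stress-activated and the ERK type respectively. Dusp10 stood at 49.0, 45.2, 73.3, 41.1 and 81.2 with mono-IL10 and at 14.7, 18.8, 15.1 and 22.7 with IL10/2-Trikine (log2 -1.74 ± 0.34, edgeR adjusted p = 0.0284), and Dusp5 at 94.7, 59.7, 56.2, 67.5 and 74.5 and at 24.4, 35.7, 0 and 18.9 (log2 -1.43 ± 0.28, edgeR adjusted p = 0.0284). In both, every IL10/2-Trikine mouse was below every mono-IL10 mouse, and also below every PBS mouse. Tnfrsf12a, the receptor of the cytokine TWEAK, was between 252 and 305 with mono-IL10, between 146 and 261 with PBS and between 75.3 and 150 with IL10/2-Trikine (log2 -1.13 ± 0.17, edgeR adjusted p = 0.00921).

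Vim and Hk2 fell as well. Vim, the intermediate filament vimentin, stood at 3845, 3761, 4548, 3338 and 4181 with mono-IL10 and at 2200, 2201, 1957 and 2480 with IL10/2-Trikine (log2 -0.83 ± 0.13, edgeR adjusted p = 0.00921). The PBS mice, at 3854, 3550, 3572, 2601 and 2508, lay between the treated groups and overlapped with the mono-IL10 mice only. Hk2, a hexokinase at the entry to glycolysis, stood at 199, 134, 112, 141 and 120 against 70.8, 78.9, 60.2 and 83.3 (log2 -0.86 ± 0.18, edgeR adjusted p = 0.0369). Hk2 was at 125 to 150 with PBS and did not pass against it (log2 -0.87 ± 0.19, edgeR adjusted p = 0.0559).

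Further genes that fell without overlap included Bmpr1b, a receptor for bone morphogenetic proteins, by 1.34 on the log2 scale (edgeR adjusted p = 0.0351), Clic1, a chloride channel protein, by 0.80 (0.0428), and the ubiquitin gene Ubb by 0.64 (0.0284). Mmp10 fell by 2.21 ± 0.47 (edgeR adjusted p = 0.0369), at 9.77, 28.2, 30.1 and 3.79 with IL10/2-Trikine, although mono-IL10 mouse 4, at 26.4, fell among them. A UMI of Mmp10 was found in 77 of the 558 fibroblasts.

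Genes higher with IL10/2-Trikine included Dusp1, Tsc22d3, Sik1 and Map3k5. Dusp1, a phosphatase for stress-activated MAP kinases, stood at 811, 700, 948 and 954 with IL10/2-Trikine and at 470, 313, 425, 411 and 451 with mono-IL10 (log2 1.03 ± 0.17, edgeR adjusted p = 0.00921). The PBS mice, at 806, 578, 801, 707 and 450, spread over both groups. Tsc22d3, the glucocorticoid-induced leucine zipper, stood at 112, 50.7, 45.2 and 68.2 against 19.6, 38.0, 12.2, 23.5 and 25.2 (log2 1.57 ± 0.31, edgeR adjusted p = 0.0284), and all 4 were above the PBS mice, at 15.5 to 40.2. Sik1, a kinase induced by cyclic AMP, rose by 0.83 (0.0483) and Map3k5, which encodes the stress kinase ASK1, by 1.72 (0.0369). Dusp1 belongs to the list of genes that respond to tissue dissociation and stress, of which 25 were tested, 15 of them above 0 and 12 with an unadjusted p under 0.05.

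Selenop and Apoe were also higher. Selenop, the plasma selenium carrier, stood at 251, 122, 166 and 110 with IL10/2-Trikine and at 65.3, 56.1, 48.9, 103 and 56.5 with mono-IL10, which do not overlap (log2 1.35 ± 0.28, edgeR adjusted p = 0.0369). Apoe, apolipoprotein E, stood at 105, 78.9, 15.1 and 60.6 against 32.6, 34.4, 17.1, 47.0 and 21.4, where IL10/2-Trikine mouse 3 was the lowest of all mice (log2 1.43 ± 0.32, edgeR adjusted p = 0.0483). Apoe is far higher in macrophages, at 11935 CPM, and macrophage markers other than Apoe and the C1q genes summed to 196 to 291 in fibroblasts of IL10/2-Trikine mice against 108 to 270 in those of mono-IL10 mice. The part of macrophage RNA in the Apoe difference was not tested.

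Clec3b, which encodes the plasminogen-binding tetranectin, was at 0 in all 5 mono-IL10 mice and at 78.1, 18.8, 30.1 and 79.5 in the IL10/2-Trikine mice (edgeR adjusted p = 0.0369). Pooled over mice this was 51.1 CPM against 0 counts, so that Clec3b was at least 63.3-fold higher than the floor of 3 counts over the mono-IL10 group. Without mono-IL10 mouse 5, the deepest of that group, the bound was at least 27.4-fold. With PBS it stood at 36.2, 32, 163, 7.25 and 0, so 4 of 5 PBS mice had it. Its 156 UMIs came from 21 cells, and cluster 4 held 99.4% of them against 4.32% of all fibroblast UMIs. Cluster 4 had 8 cells in mono-IL10 mice and 20 in IL10/2-Trikine mice, and the part of these few cells in the difference was not tested.

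Further genes that rose without overlap included Etl4, by 1.90, the zinc transporter gene Slc39a1, by 0.82, and Marcks, an actin-binding substrate of protein kinase C, by 0.71 (edgeR adjusted p = 0.0284 each), as well as the noncoding RNA gene Mir99ahg, by 0.78 (0.0420), and Lhfp, by 0.56 (0.0436). Xist, the RNA that silences an X chromosome, stood at 950, 869, 768 and 1128 with IL10/2-Trikine and at 490, 583, 540, 690 and 658 with mono-IL10 (log2 0.66 ± 0.13, edgeR adjusted p = 0.0284), while none of the 4 Y-linked genes listed had a UMI in the fibroblasts. Its difference was 0.88 in tumor epithelial cells and 0.74 in macrophages of the same libraries.

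**Figure D4:**
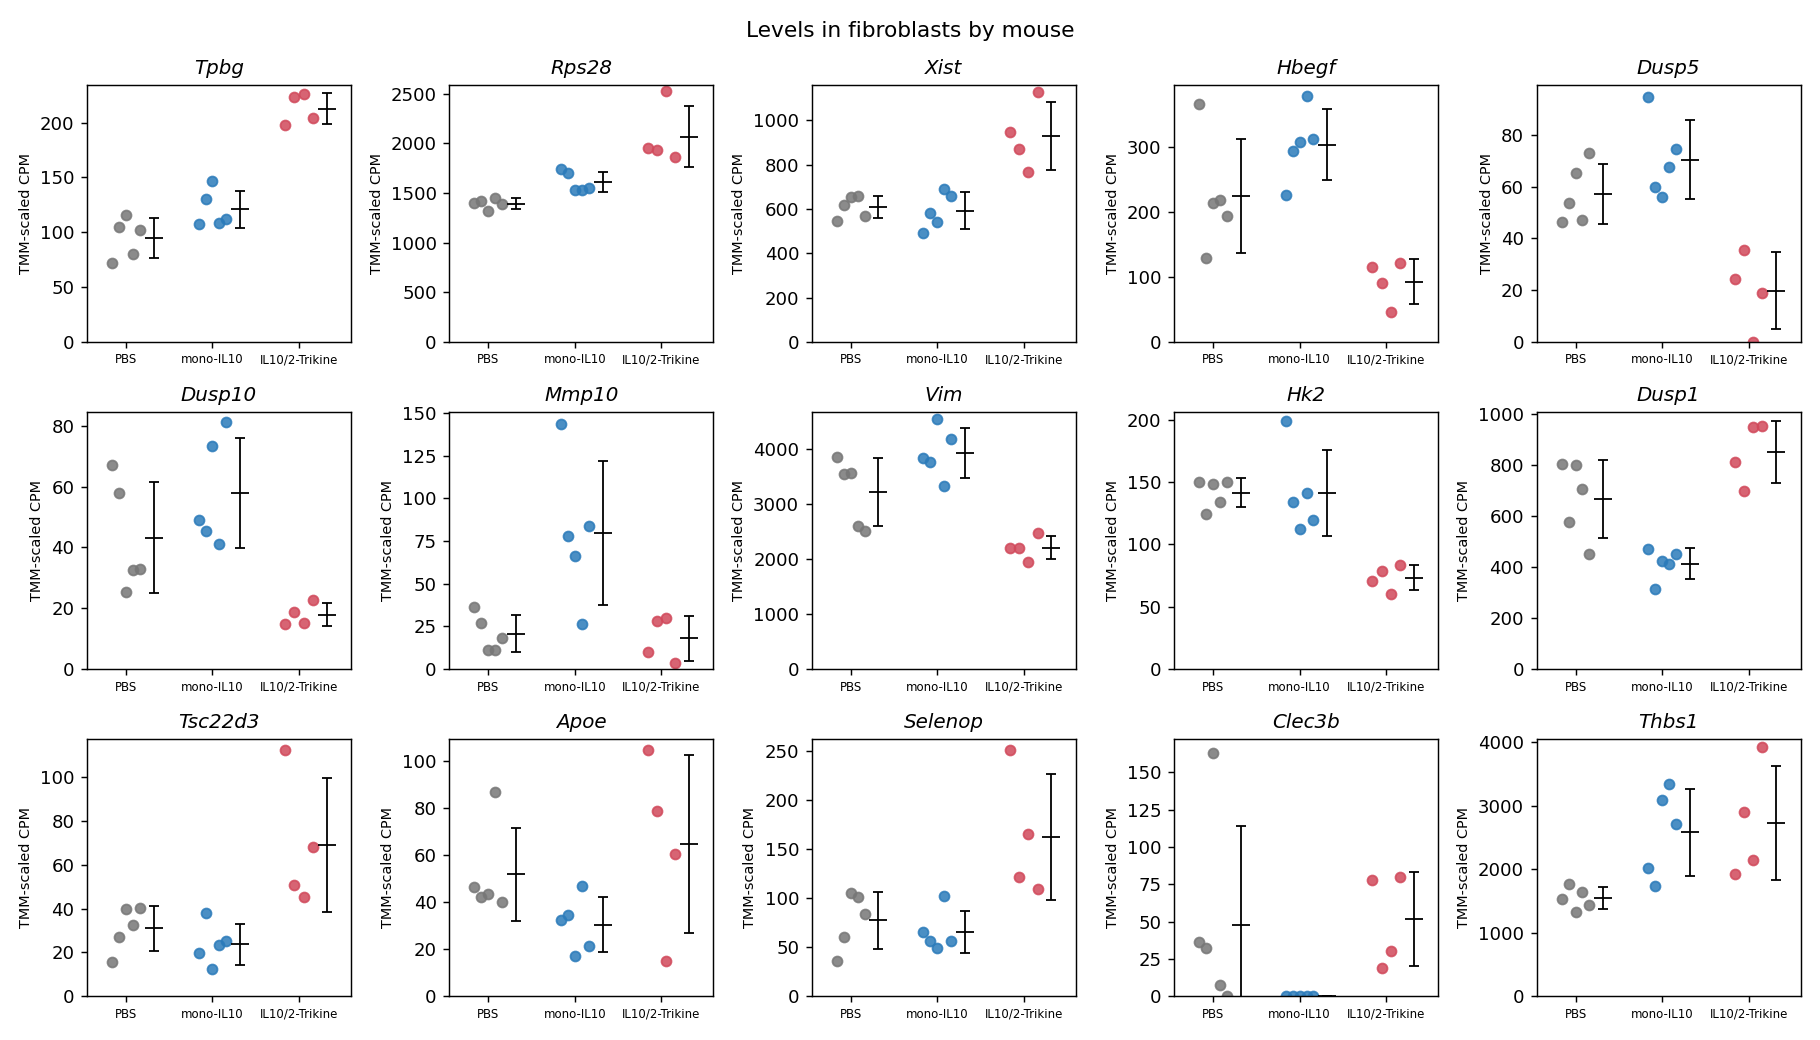
TMM-scaled CPM of 15 genes in the fibroblasts of each mouse, by treatment. Points are mice and bars are means with SD, for 5 PBS, 5 mono-IL10 and 4 IL10/2-Trikine mice. Tpbg lies higher in all IL10/2-Trikine mice than in any other mouse, Hbegf, Dusp5 and Dusp10 lie lower, and Clec3b is at 0 in all mono-IL10 mice.

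Gene lists were described by their counts and medians beside those of all 5424 genes, whose median log2 difference was -0.01 for IL10/2-Trikine over PBS, -0.00 for mono-IL10 over PBS and -0.01 for IL10/2-Trikine over mono-IL10. No list member was called in either contrast with PBS, and 9.0%, 6.97% and 12.9% of all genes had an unadjusted p under 0.05 in the 3 contrasts. The genes used to choose the cells were left out of the medians given here. The 6 other fibrillar collagens had medians of -0.07, 0.04 and -0.10, the 10 other interstitial collagens -0.03, -0.03 and 0.06, the 11 basement membrane genes 0.01, -0.06 and 0.01, the 27 other proteoglycans and matrix glycoproteins -0.10, -0.12 and 0.07, and the 21 genes of collagen processing -0.01, 0.04 and -0.03. Thbs1 was at 1333 to 1767 with PBS, at 1741 to 3346 with mono-IL10 and at 1921 to 3919 with IL10/2-Trikine (log2 0.83 ± 0.20 for IL10/2-Trikine over PBS, edgeR adjusted p = 0.121), and Lox at 629 to 1018 with PBS and 1108 to 2047 with IL10/2-Trikine (log2 0.73 ± 0.18, edgeR adjusted p = 0.165). Serpinh1 was at 3217 to 3967 with PBS and 2554 to 2950 with IL10/2-Trikine (log2 -0.31 ± 0.09, edgeR adjusted p = 0.195). The groups did not overlap for Thbs1, Lox and Serpinh1 against PBS, but none passed the adjusted test. These genes, like Jund, Dpt and Igf1, were picked from their lists by small p. With so few mice some genes separate by chance, and the share of all genes that did so is not given here. The lack of overlap in these uncalled genes therefore adds no support.

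Contractile genes were tested for 11 of 15 listed members. All 11 were above 0 for mono-IL10 over PBS, with a median of 0.34, and all 11 were below 0 for IL10/2-Trikine over mono-IL10, with a median of -0.58, while 3 were above 0 for IL10/2-Trikine over PBS, with a median of -0.16. None was called, and 3, 5 and 0 had an unadjusted p under 0.05, respectively. Tagln stood at 1648, 2439, 1746, 1567 and 1444 with PBS, at 1821, 2051, 6043, 2853 and 2097 with mono-IL10 and at 808, 1887, 693 and 2325 with IL10/2-Trikine, so mono-IL10 mouse 3 was far above the other mice and the groups overlapped (log2 -1.02 ± 0.35 for IL10/2-Trikine over mono-IL10, edgeR adjusted p = 0.199). Acta2 had 3359 in the same mouse against 1116 to 2037 in the other mono-IL10 mice, and a log2 difference of -0.75 ± 0.34 (edgeR adjusted p = 0.359). With barcodes thinned to 3000 UMIs before the rule, the difference of Acta2 was 0.04 for IL10/2-Trikine over mono-IL10, and for mono-IL10 over PBS those of Acta2 and Tagln were -0.12 and -0.03. The 15 myofibroblastic CAF genes had medians of -0.06, 0.01 and -0.07.

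Progenitor-type fibroblast genes, named for Pi16 and Dpp4, were given by another list. Of 16 listed genes 11 were tested, and 10 of them were below 0 for mono-IL10 over PBS, with a median of -0.41, and 10 above 0 for IL10/2-Trikine over mono-IL10, with a median of 0.19, with 4 unadjusted p under 0.05 in each. For IL10/2-Trikine over PBS 5 were above 0 and 6 below, with a median of -0.12 and 0 unadjusted p under 0.05. Ly6c1, a surface protein, stood at 98.2, 79.6, 333, 39.9 and 7.31 with PBS, at 49.0, 5.43, 4.89, 2.94 and 23.7 with mono-IL10 and at 188, 56.3, 30.1 and 231 with IL10/2-Trikine, with overlap between each pair of groups (log2 2.94 ± 0.74 for IL10/2-Trikine over mono-IL10, edgeR adjusted p = 0.0901). Dpt, which encodes the matrix protein dermatopontin, was at 23.5 to 99.6 with mono-IL10 and 101 to 271 with IL10/2-Trikine, which do not overlap (log2 1.39 ± 0.39, edgeR adjusted p = 0.119). Cd34 and Pi16 differed by 1.89 ± 0.51 and 1.76 ± 0.61 (edgeR adjusted p = 0.111 and 0.207). Cluster 4 held 77.2% of the Ly6c1 UMIs, 54.3% of those of Cd34, 51.2% of those of Pi16 and 30.2% of those of Dpt.

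Of the inflammatory CAF genes 25 of 28 were tested, with medians of -0.13, -0.24 and 0.35 and 2, 6 and 6 unadjusted p under 0.05, and Clec3b was the only member called. C3, the central complement component, was at 23.5 to 261 with mono-IL10 and 146 to 1189 with IL10/2-Trikine (log2 2.20 ± 0.69, edgeR adjusted p = 0.170), and cluster 4 held 57.9% of its UMIs. Ccl2 stood at 319 to 1030 with PBS and at 330 to 482 with IL10/2-Trikine (log2 -1.0 ± 0.33, edgeR adjusted p = 0.334). For antigen-presenting CAF genes 1 of 12 could be tested. The cytokine response lists were small here: 12 of 34 interferon-gamma genes were tested, with medians of -0.15, -0.11 and -0.03 and no unadjusted p under 0.05 in any contrast. The 6 of 27 type I interferon genes tested had medians of -0.09, -0.34 and 0.23 and 0, 3 and 2 unadjusted p under 0.05. Of these 6, 5 were below 0 for mono-IL10 over PBS, and none was called. The 13 of 20 class I presentation genes tested had medians of -0.14, -0.22 and 0.08 and 1, 0 and 1 unadjusted p under 0.05.

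The list of STAT3 and gp130 genes covers targets and partners of STAT3, which IL-10 and IL-6 both activate, and receptors of the gp130 family, which IL-6 uses and IL-10 does not. The list also holds Il1r1, Tnfrsf1a and Il4ra, receptor chains outside that family. It had 18 of 23 members tested, with medians of 0.19, -0.16 and 0.27, and 15 were above 0 for IL10/2-Trikine over mono-IL10. Fos, an AP-1 subunit that also belongs to the dissociation and stress list, stood at 3174, 2939, 4351 and 3257 with IL10/2-Trikine against 2112, 2424, 2147, 2912 and 2449 with mono-IL10 (log2 0.50 ± 0.13, edgeR adjusted p = 0.0901). The TGF-beta list had 25 of 28 tested, with medians of 0.11, -0.03 and 0.12 and 4, 5 and 7 unadjusted p under 0.05, and its ligand Tgfb2 was at 282 to 466 with mono-IL10 and 154 to 361 with IL10/2-Trikine (log2 -0.92 ± 0.22, edgeR adjusted p = 0.0659). Of 41 growth factors and morphogens 21 were tested, with medians of 0.08, -0.00 and 0.01, 9 unadjusted p under 0.05 for IL10/2-Trikine over mono-IL10, and Hbegf as the only call. Igf1 was at 94.7 to 215 with mono-IL10 and 237 to 466 with IL10/2-Trikine (log2 1.22 ± 0.34, edgeR adjusted p = 0.119).

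Of the matrix proteases and inhibitors all 24 were tested, with medians of 0.02, 0.11 and -0.13, and Mmp10 was the only call. The hypoxia and glycolysis list had 16 of 21 tested, with medians of 0.02, 0.17 and -0.10 and Hk2 called. The cytokine receptor chains had 6 of 18 tested, with medians of -0.11, -0.01 and -0.04 and no call. Of 24 cell cycle genes 10 were tested, with medians of 0.16, 0.59 and -0.37 and no call, and their summed level was 283 to 942 with PBS, 362 to 978 with mono-IL10 and 120 to 699 with IL10/2-Trikine. The 18 pan-fibroblast markers tested besides the genes used to choose the cells had medians of -0.09, -0.09 and -0.01, and Vim was called lower for IL10/2-Trikine over mono-IL10. The stress list had medians of 0.00, -0.18 and 0.11, with 8, 6 and 12 unadjusted p under 0.05. Among markers of other lineages 1 tumor epithelial, 3 macrophage, 2 neutrophil, 1 endothelial, 2 pericyte and 1 muscle or adipocyte gene could be tested, and Apoe was the only call.

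**Figure D5:**
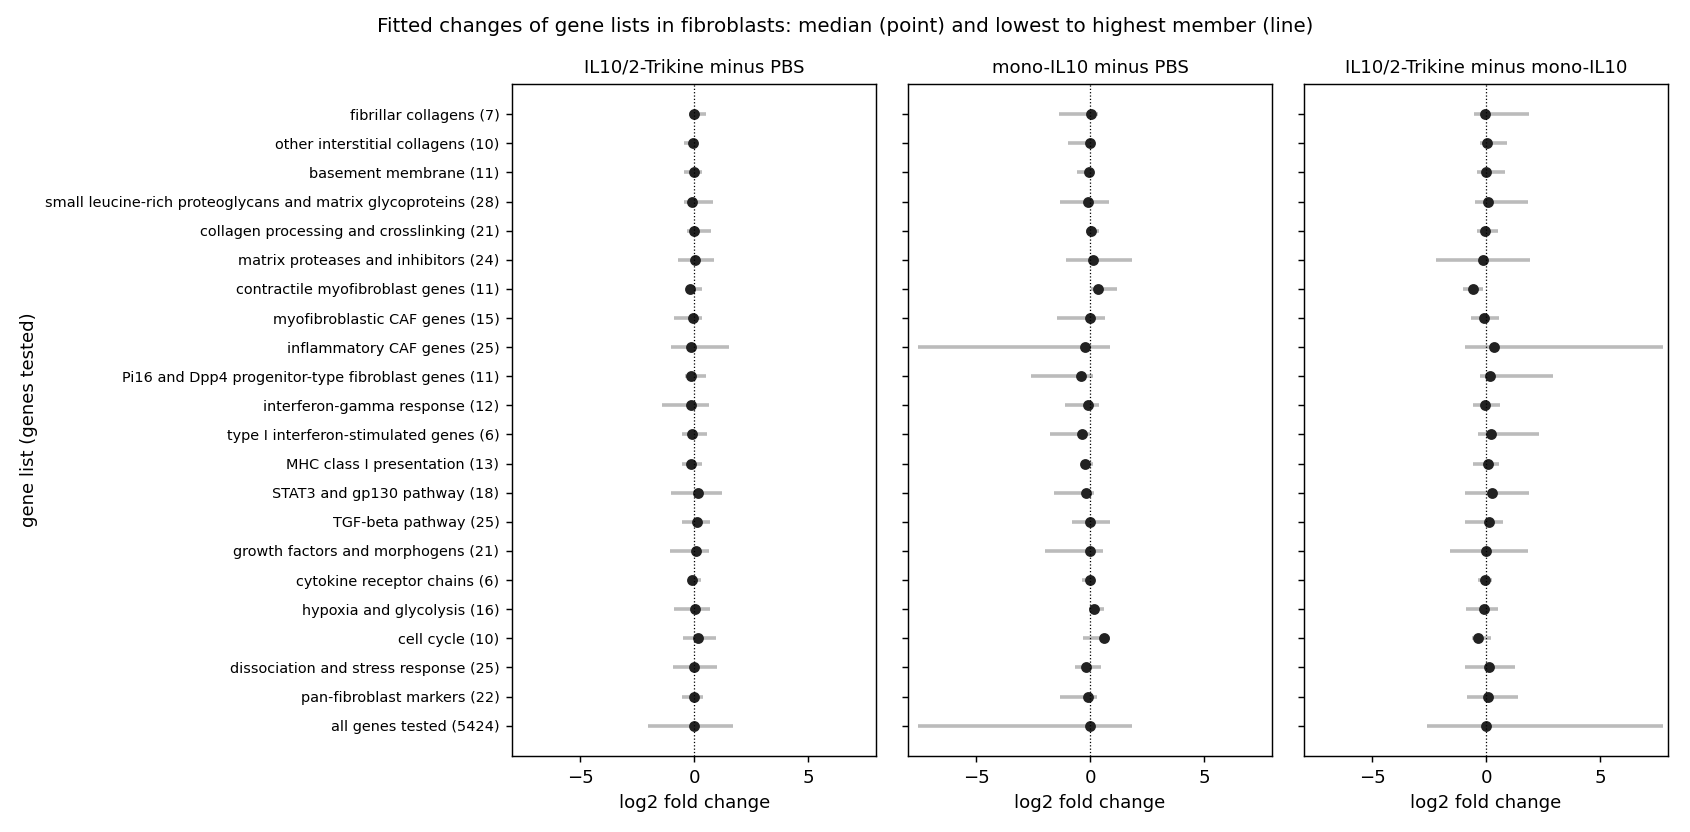
Fitted log2 differences of gene lists in fibroblasts for the 3 contrasts, with the median of the tested genes of a list as a point and the lowest to the highest as a line. The contractile list lies above 0 for mono-IL10 over PBS (median 0.34) and below 0 for IL10/2-Trikine over mono-IL10 (median -0.58), and most matrix lists have medians near 0, where the fibrillar collagen and proteoglycan lists are drawn with Col1a2 and Dcn and the pan-fibroblast list with these and both PDGF receptors, all used to choose the cells.

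To see where fibroblasts differed from other cells of the same mice, the treatment effect was compared between cell classes as an interaction, with the mouse as a block. Against tumor epithelial cells, edgeR called 4 of 13014 genes for IL10/2-Trikine over PBS (0.0307%), 0 for mono-IL10 over PBS (0%, with 610 at an unadjusted p under 0.05) and 29 for IL10/2-Trikine over mono-IL10 (0.223%). Against macrophages it called 59 (0.502%), 162 (1.38%) and 176 (1.5%) of 11742. Only 5424 genes passed the filter on low counts in fibroblasts, so many genes in these fits were low there. For such genes a call can follow from a change in the other class alone. For mono-IL10 over PBS, edgeR called 0 genes within fibroblasts and 2354 of 12092 within macrophages. These counts therefore do not give the number of genes changed in fibroblasts, and the part of genes low in fibroblasts was not tested. DESeq2 was not run on the interactions. Both classes were scaled together here over 14 mice, while effects within the other classes came from separate fits over 15 mice. A difference of the effect therefore need not equal 1 printed effect minus the other. Of the 29 genes, 9 had a higher and 20 a lower effect in fibroblasts. With no scaling beyond the totals 31 were called, 18 higher and 13 lower, so the balance of directions depended on the scaling. The count of 29 was 7 without mono-IL10 mouse 5, 10 without IL10/2-Trikine mouse 1, 13 without mono-IL10 mouse 3, 15 without mono-IL10 mouse 2 and 19 without IL10/2-Trikine mouse 5.

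For IL10/2-Trikine over mono-IL10 the decreases of Hbegf and Dusp10 were larger in fibroblasts than in both other classes. The effect on Hbegf was lower by 1.38 ± 0.22 on the log2 scale than in tumor epithelial cells (edgeR adjusted p = 0.000498), where the gene itself differed by -0.32, and lower by 1.42 ± 0.31 than in macrophages (edgeR adjusted p = 0.00972). The effect on Dusp10 was lower by 1.75 ± 0.33 than in tumor epithelial cells and by 2.09 ± 0.41 than in macrophages (edgeR adjusted p = 0.00885 and 0.00318). The effect on Etl4 was higher than in tumor epithelial cells by 1.48 (edgeR adjusted p = 0.0394). Dusp1 and Selenop differed from macrophages, by 1.02 ± 0.19 and 1.40 ± 0.28 (edgeR adjusted p = 0.00189 and 0.00421).

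Some other changes of fibroblasts went in the same direction in the tumor cells. Vim was lower by 0.63 and Tnfrsf12a by 0.71 in tumor epithelial cells of IL10/2-Trikine mice than in those of mono-IL10 mice. The differences of the effect were -0.35 ± 0.14 and -0.56 ± 0.19 (edgeR adjusted p = 0.483 and 0.371, unadjusted p = 0.0144 and 0.0053). The lack of a call does not show that the effects were equal. Apoe was higher by 1.36 in tumor epithelial cells, with a difference of the effect of -0.06 ± 0.31 (edgeR adjusted p = 1.0), and the effect on it in fibroblasts was higher by 1.52 ± 0.30 than in macrophages, where Apoe differed by -0.14 (edgeR adjusted p = 0.00416). Tpbg rose in fibroblasts over PBS without a detectable difference from tumor epithelial cells, at 0.34 ± 0.22 (edgeR adjusted p = 0.961).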

How the data were processed

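The authors made the deposited matrices of UMI counts per gene and barcode with Cell Ranger 9.0.1 on GRCm39 (their processing notes also name Seurat 5.1.0 and DESeq2 1.46.0), with no normalization. The counts were read as deposited, from 3 gene expression libraries with their hashtag counts. The deposited table of annotated T and NK cells was not used. Barcodes with at least 1000 genes, at most 10% mitochondrial UMIs and a hashtag holding at least 66.7% of antibody UMIs were kept, and fibroblasts were taken by the UMI limits given above. No doublet caller was run. The limits on other lineages leave out barcodes over them, but set none on neutrophil genes, and some mixed barcodes may remain. Tumor epithelial cells and macrophages had at least 10 keratin or C1q UMIs, respectively, and endothelial cells had Pecam1 and Cdh5. None of these classes had a Dcn UMI, and tumor epithelial cells and macrophages had no more than a single Col1a2 UMI. The members and the 32 gene lists were chosen with earlier results of these data known.

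Counts were summed per mouse where it had at least 10 fibroblasts (14 of 15 mice, 73065 to 2277940 UMIs each) and tested with edgeR 4.0.16 in R 4.3.3 (TMM, filterByExpr, quasi-likelihood, all 3 groups in 1 fit, adjusted p threshold 0.05). DESeq2 1.42.0 was an alternative. The steps were tested on simulated data. Shares were compared by exact permutation tests (scipy 1.17.1) with 95% exact binomial (Clopper-Pearson) intervals, and clusters were made by k-means (scikit-learn 1.9.0) on 20 principal components. For comparing shares of cells with a UMI, cells were thinned to 3000 UMIs, which left out 1 of 151 PBS, 0 of 193 mono-IL10 and 13 of 214 IL10/2-Trikine fibroblasts. Named genes were, per contrast, the 10 largest changes in each direction past the threshold without overlap between groups, called members of the lists, and up to 4 members of a list by smallest p, and some genes that the rule names are not reported here. Other alternatives covered the scaling, the filter on low counts, the UMI limits, the hashtag rule, the thinning and each mouse left out in turn.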

Additional observations from a re-analysis of the deposited data

Results flagged for a closer look

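Of 177 groups of 4 or 5 mice checked, 7 held a mouse that stood apart from the others of its group, and chance alone would mark about 1 in 20. On the TMM-scaled CPM these were Apoe in PBS mouse 4 (87.05), Clec3b (163.02) and Ly6c1 (333.28) in PBS mouse 3, Nfia in mono-IL10 mouse 1 (133.82), Rps28 in IL10/2-Trikine mouse 3 (2529.12), Tagln in mono-IL10 mouse 3 (6042.94) and Ubb in mono-IL10 mouse 4 (1887.49).

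For some genes called between IL10/2-Trikine and mono-IL10, the difference itself was called against tumor epithelial cells, macrophages or both. The log2 effect in fibroblasts minus that in tumor epithelial cells was -1.75 for Dusp10, -1.38 for Hbegf and 1.48 for Etl4. Against macrophages it was -2.09 for Dusp10, -1.42 for Hbegf, -1.46 for Dusp5, -1.33 for Tnfrsf12a, -0.90 for Vim, -0.77 for Clic1, -0.63 for Ubb, -0.62 for S100a11, 0.93 for Slc39a1, 1.02 for Dusp1, 1.40 for Selenop, 1.52 for Apoe, 1.21 for Tsc22d3 and 1.41 for Map3k5. Apart from Dusp10 and Hbegf, these genes had no called difference from tumor epithelial cells. Within tumor epithelial cells the called log2 effects were 1.36 for Apoe, 0.77 for Tsc22d3 and 0.58 for Dusp1. They were -0.71 for Tnfrsf12a, -0.63 for Vim, -0.55 for Ubb, -0.47 for Dusp5 and -0.35 for Clic1. S100a11, Slc39a1, Selenop and Map3k5 were not called there. For Clec3b the fitted values were 11.04 and 12.07, but with the gene at 0 in every mono-IL10 mouse these depend on the fit and bound nothing.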

How the results depend on the processing

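The number of genes called depended on the processing, while all called genes kept their direction wherever an alternative gave a value. For IL10/2-Trikine over PBS, mono-IL10 over PBS and IL10/2-Trikine over mono-IL10, in that order, the counts were 5, 0 and 32 of 5424 genes. Of the same 5424 genes they became 40, 4 and 58 with DESeq2 and 16, 0 and 29 with no scaling beyond the totals. With no filter on low counts they became 28, 72 and 180 of 18351 genes, of which 1, 0 and 29 were called in the main fit. With at least 5 counts in 5 mice they became 1, 0 and 34 of 8513 genes. They became 0, 0 and 1 of 6017 genes with at least 20 fibroblasts per mouse. With the keratin and C1q limits at 0 they became 1, 1 and 8 of 4731, and with these limits at 10 they became 16, 0 and 32 of 5476. They became 15, 0 and 12 of 4911 with Pdgfra required and 1, 0 and 3 of 5643 with at least 2000 genes per barcode. With sums thinned to the lowest total they became 4, 0 and 6 of 1549. All 3 counts were 0 with barcodes thinned to 3000 UMIs before the rule. They were also 0 with hashtags held to at least 90% after background subtraction. Both settings were chosen after seeing the data. The causes were not tested, except that the thinned rule left 1201 genes. Leaving out each mouse in turn gave 0 to 6, 0 to 1 and 0 to 38 genes.

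For differences between fibroblasts and tumor epithelial cells, a minimum of 5 counts in 5 sums gave 7, 6 and 45 genes, and leaving out each mouse gave 1 to 7, 0 to 3 and 7 to 33. Against macrophages leaving out each mouse gave 23 to 60, 89 to 183 and 75 to 171, with 23 without IL10/2-Trikine mouse 1, 27 without IL10/2-Trikine mouse 5, 89 without mono-IL10 mouse 5 and 75 without IL10/2-Trikine mouse 1 at the lower ends.

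The share of fibroblasts in IL10/2-Trikine mice was below PBS by -1.69 points among barcodes without Ptprc, by -2.47 per 100 tumor epithelial barcodes and by -0.0805 points with a hashtag share of 90%, where mono-IL10 differed from PBS by -0.0340. IL10/2-Trikine was above mono-IL10 by 0.0462 points after thinning before the rule. Leaving out each mouse gave -0.0198 to 0.216, 0.0226 to 0.520 and -0.452 to 0.0447 points, with a reversed sign without PBS mouse 1 (-0.0198), IL10/2-Trikine mouse 2 (-0.00622) and mono-IL10 mouse 5 (0.0447). After thinning before the rule, Acta2 was at 0.040 for IL10/2-Trikine over mono-IL10 and -0.12 for mono-IL10 over PBS, and Tagln at -0.0288 for mono-IL10 over PBS. With 3 clusters the largest held 463 cells. The contrasts were not run with a hashtag share of 90% without background subtraction, which left at least 10 fibroblasts in only 3 mice. No paired analysis was possible because each mouse belongs to 1 treatment and hashtag numbers only name mice. The depth of the IL10/2-Trikine fibroblasts limits what can be detected among low genes.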

Other observations

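The hashtag rule set much of the number of fibroblasts. Without it, 1499 barcodes met the other limits, of which the 558 had a single hashtag with at least 66.7% of the antibody UMIs, so most fibroblast-like barcodes could not be given to a mouse. The antigen of the tumor line, Tyrp1, stood at 46.9 CPM in tumor epithelial cells and at 0.129 CPM in fibroblasts, with 0 UMIs in 13 of 14 mice. Dpp4, a marker of progenitor-type fibroblasts, stood at 2.69 CPM in fibroblasts and at 10.4 CPM in macrophages.

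Called genes of the contrast between IL10/2-Trikine and mono-IL10 were spread unevenly over the clusters. Cluster 4, with 4.32% of all fibroblast UMIs, held 27.8% of the Apoe UMIs, 15.2% of those of Selenop, 12.1% of those of Tsc22d3 and 10.1% of those of Dusp1. The cluster also held 99.4% of the Clec3b UMIs. Of the other genes named above as higher, leaving out Pdgfra, Sik1 had 8.47% there, Map3k5 6.82% and Lhfp 6.73%. Tpbg had 6.37%, Slc39a1 6.15% and Marcks 5.45%. Only Xist (4.0%), Mir99ahg (3.36%) and Etl4 (1.29%) lay below the share of all UMIs. Among the genes that fell the shares were 0% for Mmp10, 1.07% for Hbegf, 1.66% for Dusp5 and 3.38% for Dusp10, but 4.32% for Vim, 4.44% for S100a11 and 4.47% for Ubb. The shares of cluster 4 are a description of 38 cells. Cluster 1 held 52.7% of all fibroblast UMIs, with 108 of 193 mono-IL10 and 89 of 214 IL10/2-Trikine fibroblasts. Of the genes that fell it held 76.0% of the Dusp5 UMIs, 71.2% for Dusp10, 68.5% for Hk2, 66.2% for Mmp10 and 65.3% for Hbegf. It held 50.5% for S100a11 and 48.1% for Clic1. Of those that rose it held 67.4% for Sik1 and 62.1% for Dusp1, but 36.6% for Apoe. The part of the mix of clusters was not tested.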
